A study of Homo sapiens and Mus musculus with 16 samples.

Results

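The regions on mouse chromosomes 8 and 13 of 2 ATAC-seq lists were examined, 1 list from a KPC primary tumor cell line and 1 from a matched KPC liver metastasis (mets) cell line. Chromosome 8 held 3685 regions in the tumor list and 3827 in the mets list, and chromosome 13 held 2902 and 3979. Together they made up 14393 of the 148917 regions in the KPC lists and of 364071 in all 4 lists of the series. The chromosomes were selected on their shares of regions without a counterpart in the other list. Chromosome 8 had the highest tumor-only share and the lowest mets-only share of the 19 autosomes, and chromosome 13 had the reverse. The shares, and the score changes that come from the same contrast, are therefore a description and were not tested. The question was whether whole chromosomes or segments of them carried the difference.

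ATAC-seq inserts sequencing adapters into DNA that is free of nucleosomes, so that promoters and enhancers in use stand out as regions rich in reads. KPC mice are a genetically engineered model in which pancreatic cancer arises in place, and the study describes its tumor and mets lines as isogenic. Both lines are labelled WT and untreated, with 4 replicates each, and were grown in DMEM with serum. The labels give the Omni-ATAC protocol for all samples. Neither the labels nor the methods say whether a line is a single clone or how many mice gave rise to the lines. Each list stands for the 4 replicates of its line, so there was no replicate check, no p-value could be given, and sequencing depth is unknown. Mouse autosomes have their centromere close to 1 end, so that each consists of a single long arm. Tumor cell lines often differ in the copy number of chromosomes or segments, and more DNA copies cannot be told apart from more accessibility per copy in such lists. Promoter regions at the epithelial genes Krt8, Krt18, Krt19, Epcam and Cdh1 were present in both lists. So were those of the mesenchymal genes Vim, Zeb1 and Col1a1 and of the endothelial gene Pecam1, whereas Twist1, the leukocyte gene Ptprc, the endothelial gene Cdh5 and the hepatocyte genes Alb and Apoa1 had none in either list. The hepatocyte gene Ttr had 1 in the tumor list and 0 in the mets list.

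On chromosome 13, 3 of the top 5 mets-only regions by score and 1 of the top 5 tumor-only regions are shown by their central 200 bp. They were picked because they held an AP-1 or a FOXA consensus sequence, and the tumor-only region near Tmem170b, which also held that of AP-1, scored below the one shown. The letters come from the RefSeq copy of the mouse reference genome (GRCm38, mm10) on the plus strand, not from the reads of these cells. Capitals mark the consensus sequence. In the regions nearest to Gas1, Chrm3 and Il31ra it is that of AP-1, written TGACTCA or TGAGTCA, and in the Gmds region it is that of FOXA, TGTTTAC, read here on the opposite strand. Both strands were searched, and each printed stretch held 1 of the 7 consensus sequences searched. Of the central 200 bp of all autosomal regions, 24.7% in the tumor list and 26.1% in the mets list held the AP-1 sequence, and 4.02% and 4.51% held that of FOXA. The central 200 bp of the mets-only region near Parp8, which is not shown, held none of the 7. A match is a description of the letters and not evidence of binding.
Gas1 (chr13:60019861-60020060): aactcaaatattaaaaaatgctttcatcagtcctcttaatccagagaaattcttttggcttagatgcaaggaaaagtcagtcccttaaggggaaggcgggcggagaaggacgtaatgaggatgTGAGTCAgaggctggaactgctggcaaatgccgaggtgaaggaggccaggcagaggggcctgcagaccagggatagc
Chrm3 (chr13:10947863-10948062): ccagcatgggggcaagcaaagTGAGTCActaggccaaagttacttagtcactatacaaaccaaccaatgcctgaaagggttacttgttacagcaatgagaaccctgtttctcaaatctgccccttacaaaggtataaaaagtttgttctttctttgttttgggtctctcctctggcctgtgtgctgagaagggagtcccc
Gmds (chr13:32169277-32169476): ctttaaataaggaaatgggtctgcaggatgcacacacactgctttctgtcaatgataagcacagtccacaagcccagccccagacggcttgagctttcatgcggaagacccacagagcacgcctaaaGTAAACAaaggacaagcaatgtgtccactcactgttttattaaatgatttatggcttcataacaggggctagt
Il31ra (chr13:112551768-112551967): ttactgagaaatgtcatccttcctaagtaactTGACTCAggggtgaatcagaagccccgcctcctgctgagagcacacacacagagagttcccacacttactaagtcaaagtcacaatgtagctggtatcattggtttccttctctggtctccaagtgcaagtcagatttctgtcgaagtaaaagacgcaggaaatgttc
The first lay 156658 bp from the start site of Gas1, which encodes a membrane co-receptor for hedgehog ligands, in intergenic DNA. With a score percentile of 96.6 it ranked above all but a few percent of the mets list. The second was intergenic too, 586661 bp from Chrm3, a muscarinic acetylcholine receptor gene, at percentile 88.4. The third, at percentile 94.3, lay in an intron of Gmds, which encodes an enzyme of GDP-fucose synthesis. The tumor-only region lay in an intron of the cytokine receptor gene Il31ra at percentile 57.7 of the tumor list.

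Regions that met one of the other list by 1 bp or more are called shared, and the rest tumor-only or mets-only. The score percentile is the rank of a region's deposited score within its own list, with 100 for the strongest. The change of a shared region is its percentile in the mets list minus that in the tumor list. It depends on the length of the lists, so it is read against the median of all autosomes, which was 3.64 points here and -0.40 points with lists cut to equal size. On chromosome 8, 536 tumor regions (14.5%, Wilson 95% interval 13.4 to 15.7) were tumor-only and 510 mets regions (13.3%, 12.3 to 14.4) were mets-only. The autosomes together had 8.50% and 20.1%. On chromosome 13, 155 tumor regions (5.34%, 4.58 to 6.22) were tumor-only and 1170 mets regions (29.4%, 28.0 to 30.8) were mets-only. The intervals cover counting error only. The next chromosomes in order were chromosome 18 for the tumor-only share (12.5%, 11.2 to 13.99) and chromosome 10 for the mets-only share (26.6%, 25.3 to 28.0). The interval of chromosome 18 overlapped that of chromosome 8, and the lower bound for chromosome 13 lay next to the upper bound for chromosome 10. At the low ends, chromosome 17 came next to chromosome 8 for the mets-only share (14.8%, 13.6 to 16.0). Chromosome 10 came next to chromosome 13 for the tumor-only share (5.83%, 5.08 to 6.68). Both of these intervals overlapped those of the chosen chromosomes. The mets list held 1.19 regions for each tumor region over all autosomes, 1.04 on chromosome 8 and 1.37 on chromosome 13, the lowest and the highest of the 19 autosomes.

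**Figure D1:**
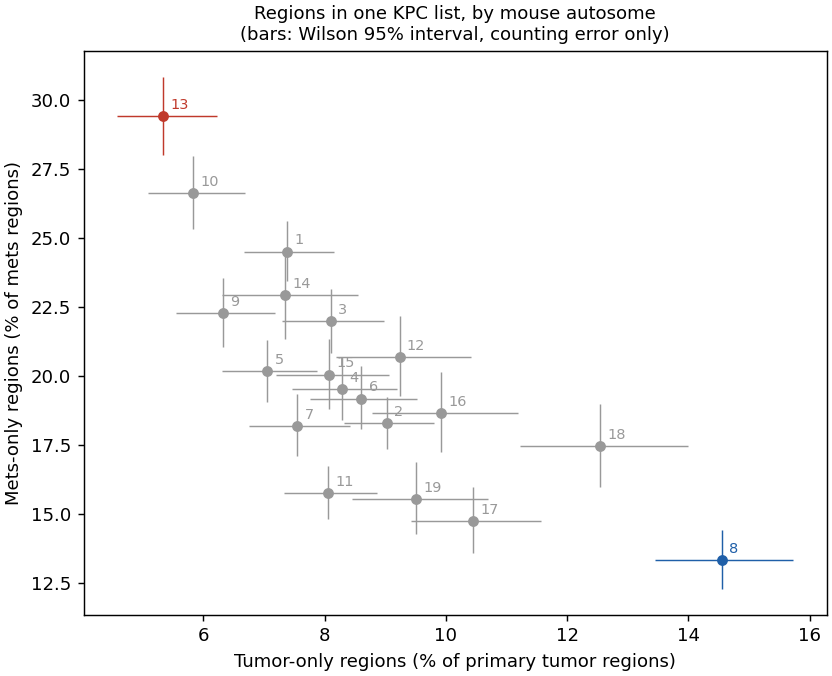
Tumor-only regions in percent of tumor regions (x axis) against mets-only regions in percent of mets regions (y axis) for the 19 mouse autosomes, 1 labelled point each, with Wilson 95% intervals that cover counting error only. Chromosome 13 sits at 5.34% and 29.4% in the upper left corner and chromosome 8 at 14.5% and 13.3% in the lower right corner.

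The shared regions were offset in the same direction as the shares. On chromosome 8 the median change of 3149 shared regions was -0.19 percentile points (95% order-statistic interval -0.56 to 0.06), against 3.64 points for 60985 shared regions of all autosomes. On chromosome 13 it was 7.40 points (6.76 to 8.06) over 2747 shared regions. The next in order were chromosome 18 at the low end, with 0.79 points (0.35 to 1.32), and chromosome 10 at the high end. Chromosome 10 had 7.05 points (6.59 to 7.69), an interval that overlapped that of chromosome 13. Of the shared regions on chromosome 8, 21.6% were lower in mets by 10 points or more, where 12.4% were over all autosomes, and on chromosome 13 the share was 7.28%. A change upward by 10 points or more was found for 43.0% of shared regions on chromosome 13 and for 19.5% on chromosome 8, where all autosomes had 30.8%. Chromosome 18 had 18.7% lower by 10 points or more, and chromosome 10 had 41.1% higher by as much. The width of a region, which comes from the same lists as the shares and scores and is not separate support, followed the same order. The median ratio of mets width to tumor width was 0.86 on chromosome 8 and 0.98 on chromosome 13, the lowest and highest of the autosomes, against 0.93 over all of them. Chromosomes 18 and 10 were next, at 0.89 and 0.97.

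In 5 Mb windows, chromosome 8 lay on the same side of the autosomes along nearly its whole length. Of its 26 windows, 24 had a tumor-only share above that of the autosomes, where 43.2% of 465 autosomal windows did. The same number, 24, had a mets-only share below that of the autosomes (48% of 479 windows), and 24 had a median change below theirs (51.9% of 462 windows). The windows with a lower median change ran without a break for 23 windows from the start of the chromosome. In 18 windows the median change was below 0, which held for 8.01% of autosomal windows. The chromosomes most like it were chromosome 18, with 15 of 18 windows above for the tumor-only share, 15 of 17 below for the change and 6 of 17 below 0, and chromosomes 19 and 17, with 12 of 13 and 16 of 19 below for the mets-only share. The 95% interval lay clear of the autosomal value in 15 windows for the tumor-only share, in 13 for a low mets-only share and in 19 for the median change. Such interval counts were not made for the other autosomes, so they do not set chromosome 8 apart.

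The tumor-only share on chromosome 8 ran from 6.21% in window 6 (25000001 to 30000000), which holds Plekha2 and the histone methyltransferase gene Nsd3, to 24.2% in window 2 (5000001 to 10000000), which holds Efnb2, an ephrin ligand gene, and the DNA ligase gene Lig4. Window 10, which holds the interferon regulatory factor gene Irf2 and the cytoskeletal adaptor gene Sorbs2, had 23.8%. The mets-only share was lowest in window 17 (80000001 to 85000000), at 6.10%, where Inpp4b, a phosphoinositide phosphatase gene, had 7 tumor-only and 2 mets-only regions. It was highest in window 4 (15000001 to 20000000), at 32.0% (20.8 to 45.8), the only window of chromosome 8 whose interval lay above the autosomes. That window held 50 mets regions and 37 tumor regions.

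**Figure D2:**
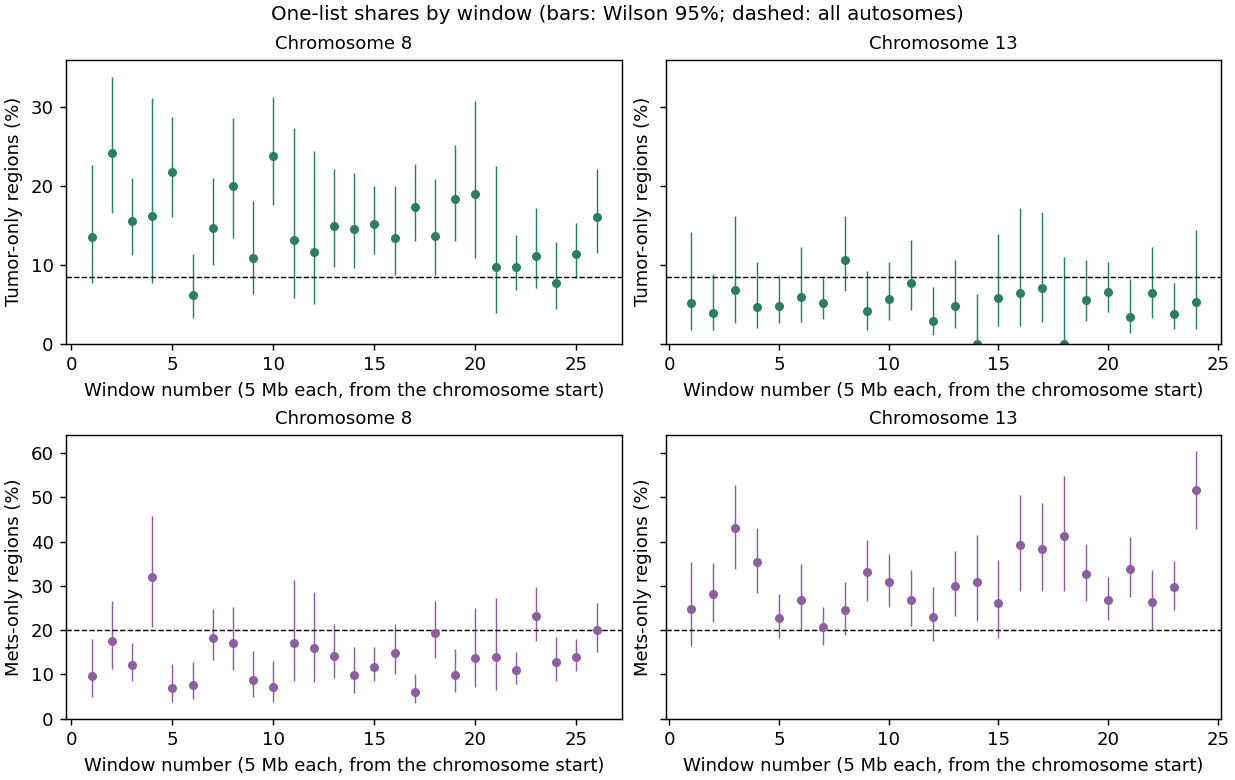
Tumor-only shares (upper panels, % of tumor regions) and mets-only shares (lower panels, % of mets regions) in 5 Mb windows numbered from the chromosome start, for chromosome 8 (left) and chromosome 13 (right), with Wilson 95% intervals and the share of all autosomes as a dashed line. On chromosome 8, 24 of 26 tumor-only points lie above the line, and on chromosome 13 all 24 mets-only points do.

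Toward the end of chromosome 8 the median change was higher and nearer to that of the autosomes. The first 22 windows, up to 110 Mb, had median changes from -4.09 to 0.64 points. The last 4 had 1.95, 3.92, 2.57 and 4.51 points, and window 24 (115000001 to 120000000) and the last window were the only ones above the autosomes. The lowest median lay in window 12 (55000001 to 60000000), at -4.09 points (-11.6 to -0.71), which holds Galnt7, a gene of mucin-type glycosylation, and window 13, with the actin-binding gene Palld, had -3.38 points. The end window, at 4.51 points (1.23 to 6.82), holds the polarity gene Pard3 and the neuropilin gene Nrp1. Split at 110 Mb, a point chosen after the windows were seen, the stretch before it had a tumor-only share of 15.4%, a mets-only share of 12.2% and a median change of -1.16 points (-1.64 to -0.62, 2436 shared regions). The stretch after it had 11.6%, 16.9% and 2.96 points (1.87 to 4.02, 713 shared regions), values on the same side of the autosomes but nearer to them. The difference was larger at distal regions, more than 1 kb from a start site, with medians of -1.33 before and 3.93 after the split. At promoter regions they were -0.76 and 0.71 points. A running sum of the shared regions above and below the chromosome's own median was farthest from 0 at 94132280. Medians were -1.36 points before that position and 1.87 points after it. Such a farthest point is found on any chromosome, at 34660715 on chromosome 13, so it does not show a boundary. Whether chromosome 8 had a boundary or a gradual change was not tested.

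On chromosome 13 the windows lay on the opposite side of the autosomes over the whole length. All of its 24 windows with at least 20 regions had a mets-only share above the autosomes (52% of all autosomal windows). In 23 the tumor-only share was below that of the autosomes (56.8% of windows) and in 23 the median change was above theirs (48.1% of windows). The exceptions were window 8 (35000001 to 40000000), with a tumor-only share of 10.6% and 4 of 21 tumor regions at the mitochondrial tRNA synthetase gene Fars2 in the tumor list only, and window 3 (10000001 to 15000000), with a median change of 3.02 points. No window had a median change below 0, which also held on chromosomes 3, 5, 9, 10, 11, 14 and 19. Over all autosomes 8.01% of windows were below 0. Chromosome 10 was much alike, with 26 of 26 windows above for the mets-only share, 21 of 25 below for the tumor-only share and 24 of 25 above for the change, and chromosome 9 had 23 of 24 above for the change. The interval lay above the autosomes in 16 windows for the mets-only share and in 17 for the change. For the tumor-only share it lay below the autosomes in only 5 of 24 windows. These interval counts were not made for the other autosomes either. In 2 windows, 14 and 18, none of the 57 and 31 tumor regions was tumor-only (upper bounds 6.31% and 11.03%), and window 18 holds the extracellular matrix gene Vcan.

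The mets-only share on chromosome 13 was lowest in window 7 (30000001 to 35000000), at 20.6%, although Gmds in that window had 11 mets-only of 25 mets regions. It was highest in window 24 (115000001 to 120000000), at 51.7% (42.8 to 60.5), where 118 mets regions stood against 57 tumor regions. Window 3 had 43.0% (33.7 to 52.8), although at its lysosomal trafficking gene Lyst only 1 of 5 mets regions was mets-only. In the first 2 Mb of that window (10000001 to 12000000), all 20 mets regions were mets-only and the tumor list held 0 regions. The median change was highest in window 1, at 11.9 points (5.84 to 14.7), which holds the guanine nucleotide exchange factor gene Net1, and in window 17, at 11.7 points (4.49 to 19.1), which holds Mef2c. In 3 parts of equal length, medians were 7.94, 6.53 and 7.83 points on chromosome 13, and -1.52, -1.33 and 1.63 points on chromosome 8. The mets-only share of the same parts of chromosome 13 was 26.6% (24.5 to 28.9), 29.2% (26.6 to 32.0) and 32.7% (30.3 to 35.3), higher toward the end, with outer intervals that did not overlap. The spread of window medians was alike on both chromosomes, with an SD of 2.1 points on chromosome 8 and 2.11 points on chromosome 13, around median windows of -1.08 and 7.54 points.

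**Figure D3:**
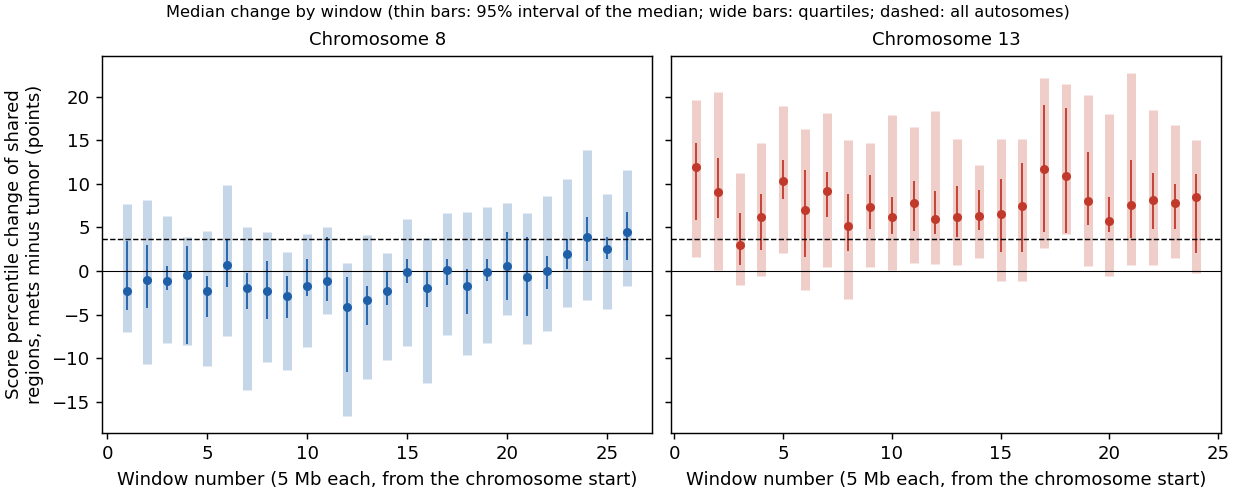
Median change in score percentile of shared regions (points, mets minus tumor) in 5 Mb windows numbered from the chromosome start, with 95% intervals of the median as thin bars, quartiles as wide bars and the median of all autosomes, 3.64 points, as a dashed line. Chromosome 8 stays at or below 0.64 points up to window 22 and reaches 4.51 points in the last window, and chromosome 13 runs from 3.02 to 11.9 points.

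Over all 462 autosomal windows, the tumor-only share and the median change ran opposite ways (Spearman correlation -0.50), and the mets-only share and the change ran together (0.39). These are correlations across windows of the same pair of lists, which share libraries, score ranks and calling threshold, and they are given as a description.

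Strong and weak regions were both offset. In each of 10 score deciles of the tumor list the median change was lower on chromosome 8 and higher on chromosome 13 than on the other autosomes. In the weakest decile it was 9.24 points on chromosome 8, 11.8 on the other autosomes and 16.9 on chromosome 13. In the strongest decile it was -1.33, -0.02 and 0.80 points. One-list regions were mostly weak on both chromosomes, and 57.1% of tumor regions of the weakest decile of chromosome 8 were tumor-only, against 38.0% on the other autosomes. Of mets regions in the weakest decile, 68.5% on chromosome 13 and 54.0% on the other autosomes were mets-only. With every chromosome weighted to the score deciles of all autosomes, the tumor-only share was 14.1% on chromosome 8 and the mets-only share 29.5% on chromosome 13, close to the unweighted shares.

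**Figure D4:**
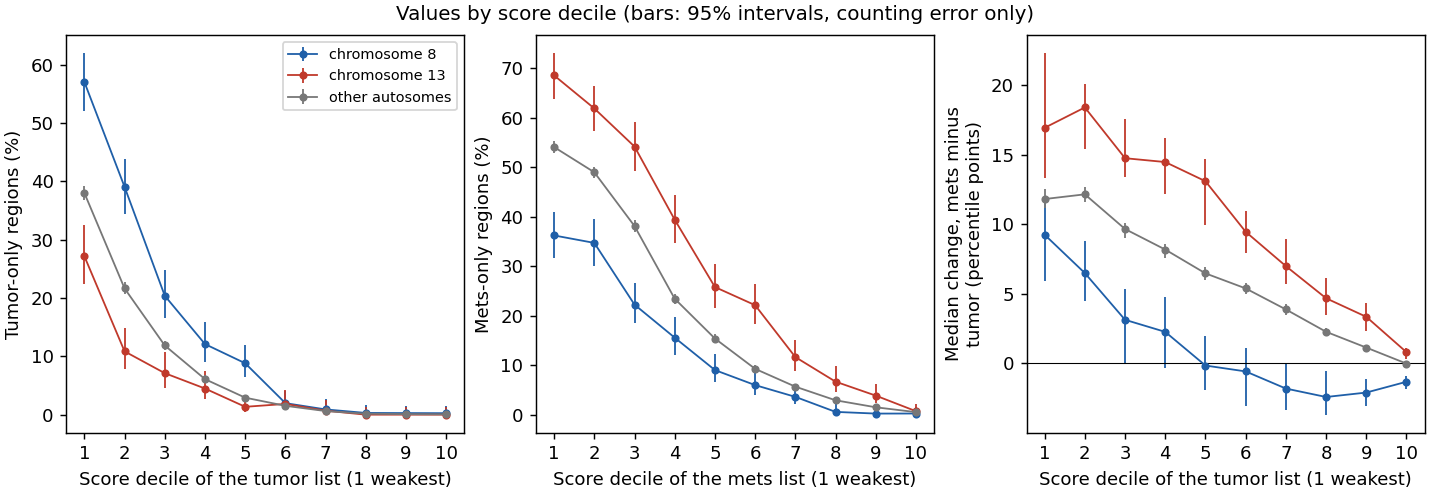
Tumor-only share by score decile of the tumor list (left), mets-only share by score decile of the mets list (middle) and median change of shared regions by score decile of the tumor list (right), decile 1 being the weakest, for chromosome 8, chromosome 13 and the other autosomes, with 95% intervals that cover counting error only. In the right panel chromosome 13 runs from 16.9 points in decile 1 to 0.80 points in decile 10 and chromosome 8 from 9.24 to -1.33 points, on either side of the other autosomes.

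Promoters and distal regions were both offset. Regions within 1 kb of a start site on chromosome 8 were tumor-only in 9.0% and mets-only in 5.78%, where the other autosomes had 5.73% and 9.60%. Distal regions of chromosome 8 had 16.7% and 16.4%, against 9.27% and 23.6%. On chromosome 13, 3.58% of promoter regions in the tumor list were tumor-only and 16.3% of those in the mets list were mets-only. For distal regions the shares were 5.96% and 33.3%. The median change of shared regions at promoters was -0.43 points on chromosome 8, 2.37 on the other autosomes and 5.09 on chromosome 13, and at distal regions -0.09, 4.51 and 8.85 points. Promoters made up 28.0% of the tumor regions of chromosome 8 (26.6 to 29.5) and 26.0% of those of chromosome 13 (24.4 to 27.6), against 27.9% on the other autosomes. In the mets list they made up 28.9% (27.5 to 30.4), 22.9% (21.7 to 24.3) and 26.4%.

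Genes along both chromosomes followed the offset. With 10 kb on each side of the gene body, 851 protein-coding genes of chromosome 8 held a shared region, and for 76.6% of them the median change was below that of the autosomes, against 50.3% of 14186 genes on the other autosomes. It was below 0 for 53.3%, against 27.2%. Of 622 genes on chromosome 13, 68.0% were above the autosomes and 14.3% were below 0. Of single shared regions, 51.3% on chromosome 8, 24.2% on chromosome 13 and 35.1% over all autosomes were lower in mets, and the counts for single genes that follow are to be read against these shares. Neighboring genes can share regions, so these genes are not independent of each other.

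Among transcription factor genes of chromosome 8, 18 of 25 listed genes held a shared region. Of these, 10 were below the autosomes (55.6%, against 76.6% of all chromosome 8 genes) and 8 above, and their median of 3.23 points was nearer to the autosomes than to the -0.54 points of all chromosome 8 genes. The AP-1 genes Jund and Junb were among those higher in mets. Jund had a median change of 15.2 points over 3 shared regions, although its best promoter region went from percentile 33.6 to 25.4. Junb had 11.6 points over 7 regions, with 3 lower and 4 higher in mets. Maf, a bZIP factor gene, had 3 of 3 regions higher, and its promoter region went from percentile 30.5 to 45.2. Lower in mets were Cbfb, the partner subunit of RUNX factors, with 4 of 5 regions lower and a median of -8.77 points, and Ctcf, the insulator protein gene, whose promoter region went from percentile 46.9 to 15.3. At Smad1, a mediator of BMP signals, 3 of 11 tumor regions were tumor-only and none of 8 mets regions was mets-only, while 7 of its 8 shared regions were higher in mets. The 7 genes without a region in either list were Irx6, Foxl1, Hand2, Sall1, Irf8, Zfp423 and Tox3.

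Of 15 adhesion and matrix genes of chromosome 8 with a shared region, 11 were below the autosomes and 9 below 0, with a median of -1.54 points. Over all genes of the chromosome, 76.6% and 53.3% were, so these counts did not set the list apart. The neighboring classical cadherin genes went opposite ways. At Cdh1, which encodes E-cadherin, 9 of 11 shared regions were higher in mets, with a median of 8.66 points and a promoter region at percentile 30.4 in the tumor list and 46.1 in the mets list. At Cdh3, which encodes P-cadherin, 6 of 7 were lower, with a median of -6.66 points. Mmp15, a membrane-type metalloproteinase gene, had 2 tumor-only regions of 5 and a median of -18.0 points over 3 shared regions. Cdh13, which encodes T-cadherin, held 1 region in the tumor list and 5 in the mets list, 4 of them mets-only. Col4a1 and Col4a2, a head-to-head pair of basement membrane collagen genes, share a promoter region that went from percentile 35.3 to 19.7.

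Of 18 signaling and growth control genes of chromosome 8 with a shared region, 12 were below the autosomes (66.7%, against 76.6% of all its genes) and 10 below 0 (55.6%, against 53.3%), with a median of -2.15 points. Their tumor-only share was 19.6% of 138 regions, against 14.5% for the chromosome, and their mets-only share was 16.9% of 142 regions, against 13.3%. Nrg1, which encodes a ligand of ERBB receptors, had 10 of 11 shared regions lower in mets, with a median of -15.4 points and a promoter region at percentile 53.3 in the tumor list and 33.0 in the mets list. It also had 6 mets-only regions among 18. Hpgd, the gene of the prostaglandin-degrading enzyme, had a median of -29.3 points over 3 regions, and its promoter region went from percentile 58.0 to 26.2. Wwox, a tumor suppressor gene at a common fragile site, had 6 of 8 shared regions lower, with a median of -20.5 points, and 4 of 12 tumor regions in the tumor list only, yet its promoter region was at percentile 90.01 in the tumor list and 92.9 in the mets list. Vegfc, a lymphatic growth factor gene, had -11.5 points over 4 regions. Irs2, an insulin receptor substrate gene, went the other way, with 5 of 5 regions higher and a median of 7.40 points. Dlc1, a GTPase-activating gene described as a tumor suppressor, had no region in the tumor list and 6 in the mets list.

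On chromosome 13, 16 of 25 transcription factor genes held a shared region, 13 of them above the autosomes (81.2%, against 68.0% of all its genes), with a median of 11.4 points against 6.97 for all genes of the chromosome. The neighboring forkhead genes Foxc1, Foxq1 and Foxf2 had 3 of 3, 4 of 4 and 4 of 4 shared regions higher in mets, with medians of 14.4, 12.0 and 7.01 points. At Foxf2, 2 of 6 tumor regions were tumor-only and 2 of 6 mets regions were mets-only. At Mef2c, a MADS-box factor gene, 4 of 4 shared regions were higher, with a median of 23.4 points, and 4 of 9 mets regions were mets-only. Its promoter region went from percentile 49.3 to 76.8. Id4, an inhibitor of helix-loop-helix factors, had 1 region in the tumor list, at its promoter, which went from percentile 34.8 to 77.1. Klf6 had 5 of 5 regions higher, with a median of 9.84 points. Below 0 were E2f3, a cell cycle factor gene, with -0.30 points, and Zfp131, with -1.01 points. Irf4, Pitx1, Msx2, Irx1, Irx2, Irx4 and Isl1 had no region in either list.

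Of 13 adhesion and matrix genes of chromosome 13 with a shared region, 10 were above the autosomes (76.9%, against 68.0%), with a median of 7.52 points. Tgfbi, a TGF-beta-induced matrix protein gene, held 2 regions in the tumor list and 7 in the mets list, 5 of them mets-only, and its 2 shared regions were higher by 27.2 and 33.0 points. Itga2, the alpha-2 subunit of a collagen-binding integrin, had 10 of 12 shared regions higher, with a median of 14.5 points, and no one-list region. Its neighbor Itga1 had 7 of 9 higher, with a median of 4.28 points. Edil3 held 3 tumor regions and 8 mets regions, 5 of them mets-only. Thbs4, a thrombospondin gene, went against the rest with 3 of 4 regions lower and a median of -10.3 points.

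Of 21 signaling and growth control genes of chromosome 13 with a shared region, 17 were above the autosomes (81.0%, against 68.0%), with a median of 9.47 points. Ptch1, the hedgehog receptor gene, had 3 of 3 shared regions higher, with a median of 25.5 points and a promoter region that went from percentile 8.78 to 34.3. Syk, a nonreceptor tyrosine kinase gene, had 4 of 4 higher, with a median of 14.4 points, and 4 of 8 mets regions were mets-only. Bmp6, a BMP ligand gene, had a promoter region at percentile 14.4 in the tumor list and 39.3 in the mets list. Pde4d, a cAMP phosphodiesterase gene with the most regions of the list, had 52 of 65 shared regions higher, with a median of 9.93 points, close to the chromosome as a whole, and 21 of its 87 mets regions were mets-only. Tert, the telomerase reverse transcriptase gene, had 2 of 2 regions lower, with a median of -4.25 points.

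**Figure D5:**
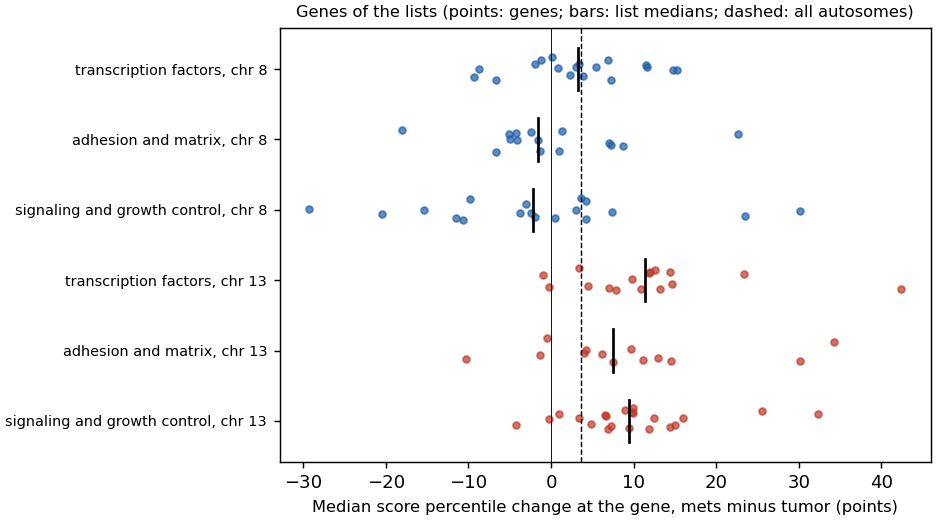
Median change in score percentile (points, mets minus tumor, x axis) of the shared regions within 10 kb of each gene of 3 lists on chromosome 8 (blue) and chromosome 13 (red), 1 point per gene, with the list median as a black bar, 0 as a thin line and the median of all autosomes as a dashed line. List medians are 3.23, -1.54 and -2.15 points on chromosome 8 and 11.4, 7.52 and 9.47 points on chromosome 13.

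The highest-scoring tumor-only region of chromosome 8 lay in an intron of Wwox (114554812 to 114555483) at percentile 91.0 of the tumor list. The next lay in an intron of Rpgrip1l, a gene of the ciliary transition zone, at 88.0, then came intergenic DNA 176852 bp from the phosphorylase kinase gene Phkb, an intron of Mcph1 and intergenic DNA 64469 bp from the homeobox gene Irx3. The highest mets-only regions of chromosome 8 lay 132637 bp from Pmfbp1 (109360891 to 109361390, percentile 92.1), in an intron of Csmd1 (88.0) and near Apela, which encodes a secreted peptide (75.1). The next were in an intron of Sipa1l2 and in an intron of the long noncoding RNA gene D030068K23Rik, 285341 bp from Pmfbp1. On chromosome 13 the top mets-only regions had higher percentiles than the top tumor-only ones, out of 1170 and 155 regions. Mets-only regions also had the higher median percentile on the other autosomes, at 19.2 against 11.6 for tumor-only regions. Besides the mets-only regions of chromosome 13 near Gas1, Gmds and Chrm3, 1 lay 305084 bp from Parp8 (89.3). The tumor-only regions of chromosome 13 ran from percentile 62.2, near Atp6ap1l, down to 55.4, in an intron of Atxn1, with regions near Serpinb1a, Il31ra and Tmem170b between.

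Among shared regions of chromosome 8, the largest downward difference was at an intergenic region 22544 bp from Ing2 (47650456 to 47651145), which was at percentile 89.0 in the tumor list and 16.4 in the mets list. Introns of Rasa3, a Ras GTPase-activating gene, and Zfp827 went from 72.2 to 2.15 and from 68.7 to 1.38. The promoter region of Itgb1 (128685246 to 128686632), the gene of the integrin beta-1 subunit, went from 81.4 to 21.7, and was 1387 bp wide in the tumor list and 696 bp in the mets list. A region near Cog2 went from 61.6 to 2.15. Upward, a region 27302 bp from Adgre5, an adhesion receptor gene, went from 6.53 to 77.4. Intergenic regions 54649 bp from Csmd1, 226012 bp from the atypical cadherin gene Fat1 and 52147 bp from Tarbp1 were higher by 66.7, 59.6 and 52.9 points.

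On chromosome 13 the largest upward differences exceeded the downward ones in size. A region 832373 bp from Inhba, which encodes an activin subunit, was among the weakest of the tumor list (230 bp wide, percentile 0.22) and at percentile 95.3 in the mets list, where it was 1432 bp wide. At the promoter of Agtpbp1, a tubulin deglutamylase gene, a tumor region at percentile 1.23 (59584434 to 59584733) was paired with a mets region at percentile 88.7 (59584676 to 59585500). These met only at their ends, so they were largely different stretches of DNA. Intergenic regions nearest to Itga1 (244311 bp away) and Hapln1 and a region within an intron of Adamts6 were higher by 83.5, 77.9 and 76.8 points. Downward, a promoter region of the importin gene Ipo11 went from 72.5 to 8.11, and an intronic region of Erbin, a scaffold of ERBB2, from 79.1 to 18.5. An intergenic region 48667 bp from Poc5 differed by -52.0 points. One in an intron of the long noncoding RNA gene Gm47450, 326813 bp from Akr1e1, differed by -51.9 points. Another in an intron of Ndufaf2, 52284 bp from the start site of Smim15, differed by -50.9 points.

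Within 50 kb of a start site, the chromosome 8 genes with the most tumor-only regions were Mpv17l2 and its neighbor Rab3a (the same 7 of 23 tumor regions), Ankrd11 (7 of 24), Irf2 (6 of 20) and Sorbs2 (6 of 24). Those with the most mets-only regions were Isx, an intestinal homeobox gene with 8 regions in the mets list and 0 in the tumor list, Gse1 (7 of 30), Cntnap4 (6 of 6), Dlc1 (6 of 7) and the cytokine gene Il34 (6 of 18). On chromosome 13, Carmil1, a regulator of actin capping, had 13 mets-only regions of 23 and none that was tumor-only. Pde4d had 13 of 57, Lhfpl2 11 of 26, Kif13a 10 of 26 and the granzyme gene Gzmk 9 of 11. The most tumor-only regions of chromosome 13 were at Fars2 (6 of 24), Nrn1 (5 of 8), Pde4d (5 of 48), and Arrdc3 and 4833439L19Rik with 3 each.

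For each of the 7 consensus sequences, the share of one-list regions that held it had an interval that overlapped that of the other autosomes, except for AP-1 in mets-only regions of chromosome 13. Over the whole region, the AP-1 sequence was present in 36.6% of mets-only regions of chromosome 13 (33.9 to 39.4) and in 33.0% of those of the other autosomes (32.2 to 33.8). In shared regions of the tumor list it was present in 41.8% on chromosome 13 (40.0 to 43.7) and 38.6% on the other autosomes (38.2 to 39.0), so the higher share was not particular to mets-only regions. Median widths on chromosome 13 and the other autosomes were 283 and 271 bp for mets-only regions. For these shared regions they were 535 and 545 bp. A wider region has more room for a match, and the part of width was not tested. The FOXA sequence was present in 9.06% of mets-only regions of chromosome 13 (7.55 to 10.8) and in 7.48% of those of the other autosomes (7.06 to 7.92). Tumor-only regions of chromosome 8 held the AP-1 sequence in 32.1% (28.3 to 36.2), against 33.2% on the other autosomes, and the RUNX sequence TGTGGTTT in 2.43% (1.42 to 4.11), against 3.06%. The CTCF consensus was present in 3.64% of shared regions of chromosome 13 (3.00 to 4.41) and 6.03% of those of chromosome 8 (5.25 to 6.92), against 5.75% on the other autosomes. The median GC content of shared regions in the tumor list was 46.9% on chromosome 13, 49.8% on chromosome 8 and 49.1% on the other autosomes, and the part of GC content in the shares was not tested.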

How the data were processed

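ATAC-seq samples (16) were grouped by their titles into 4 groups of 4. The authors deposited a BED list of regions for each group, and a score whose scale is not stated, so the deposited score was used only as a rank within its list (mid-ranks for ties). The submitters' processing notes name Bowtie2 2.2.6, MACS2 2.1.1.20160309 and DiffBind without their roles, and the builds mm10 and GRCm38. How replicates were combined is not given in the sources used here. All region ends lay inside the GRCm38 chromosomes. A deeper or stronger library gives more weak regions, so one-list shares mix accessibility with calling power. The HPAF-II lists were used only for their number of regions.

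Each shared region was paired with its longest overlap in the other list. Regions were placed in 5 Mb windows by their center, and windows with fewer than 20 regions (shared regions for the change) were left out, which removed the 25th window of chromosome 13 (0 tumor regions, 1 mets region). Start sites and genes came from GENCODE vM21. Wilson intervals for shares and binomial order-statistic intervals for medians (95%) cover counting error only, and no p-value was computed, since each group has 1 list. Python 3.11.15, numpy 2.4.6, pandas 2.3.3 and scipy 1.17.1 were used, and the scripts were tested on simulated data. Genes were named where closest to one of the top 5 tumor-only or mets-only regions by score or to the 5 largest changes of shared regions in each direction, where they had the most one-list regions within 50 kb, where they were the 2 genes with the most regions in the extreme windows, or where they were on the gene lists, which were written from background knowledge. The chromosomes, lists and rules were chosen with earlier results of these data known. Some regions that meet these rules are not reported here. Alternatives covered the overlap, list size, score, position, percentile scale, pairing and windows.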

Additional observations from a re-analysis of the deposited data

How the results depend on the processing

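Of 90 values under alternative settings, 14 came from the same regions and windows as those reported, since no region was under 200 bp wide and the lower minimum of 5 regions added no window. Of the other 76, 42 stayed close. All 40 shares and medians under planned settings (6 of them from the 200 bp filter), and 6 of 6 in the split of chromosome 8, stayed on the same side of the autosomes treated alike. Counts of windows stayed within 1.5 times the reported ones except with other window sizes. Windows of 2 Mb gave 42 of 49 (chromosome 8, tumor-only above), 51 of 56 (chromosome 13, mets-only above), 39 of 46 (chromosome 8, change below) and 47 of 50 (chromosome 13, change above), and windows of 10 Mb gave 13 of 13, 12 of 12, 13 of 13 and 12 of 12. Shares are given in the order chromosome 8 tumor-only and mets-only, then chromosome 13 tumor-only and mets-only. With regions within 500 bp counted as shared, the shares were 12.3%, 12.3%, 4.00% and 27.0%. With both lists cut by score to the same length, somewhat under that of the shorter, they were 22.7%, 7.67%, 10.2% and 21.4%, with median changes of -4.62 and 3.08 points (all autosomes -0.40). With both lists cut to regions at or above their own median score, chromosome 8 had 13.05% and 15.1% and a median of -0.70 points. Chromosome 13 had a mets-only share of 31.2% and a median of 8.18 points. Here a strong region whose counterpart fell below the cut counted as one-list. Against the uncut lists, tumor-only shares in score deciles 6 to 10 of chromosome 8 ran from 1.97% down to 0.25%. Mets-only shares in deciles 6 to 10 of chromosome 13 ran from 22.1% down to 0.75%. For distal regions alone chromosome 8 had 16.8% and 16.9%, and chromosome 13 a mets-only share of 33.5% and a median of 8.36 points. Ranked among shared regions alone, the medians were -3.84 and 3.62 points (all autosomes 0.18). Up to 110 Mb, chromosome 8 had a mets-only share of 12.2% and a median of -1.16 points. After it the values were 11.6%, 16.9% and 2.96 points (all autosomes 3.87), with the sign of the median reversed. This split was chosen after seeing the data. No paired analysis was possible because each group has 1 list and its columns carry no replicate. For the same reason no replicate could be left out. The number of reads and the copy number of the segments are unknown, and the causes of these differences were not tested.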
